A study of Homo sapiens with 40 samples.

Results

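The genes described here are pseudogenes of the cytosolic ribosomal proteins that took up sequencing reads in single T47D cells. They were chosen by name and by reads: a pseudogene whose symbol is that of a ribosomal protein gene followed by P and a number, with at least 50 reads summed over the 33 cells kept. Of 1598 such pseudogenes among the 60279 genes listed, 575 had a read and 71 reached 50 reads. The 71 held 18124 reads, 82.3% of all reads on pseudogenes of this name. Because the summed reads chose them, their abundance is given as a description.

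T47D is a human luminal breast cancer cell line, here from 1 culture at passage 10, sorted into plates as EpCAM+ and CD49f+ cells without any treatment. Full-length cDNA was made with G&T (the transcriptome arm of genome and transcriptome sequencing), Takara (the SMART-seq HT kit) or NEB (the NEBNext single cell kit), and 11 cells of each protocol passed the quality thresholds. With 1 plate and 1 run for each, effects of protocol and of run cannot be told apart, the cells are not replicates of a protocol, and no test between protocols was made. The reads on genes per cell ranged from 658154 to 1166633 in G&T, from 818512 to 1287911 in Takara and from 624772 to 963816 in NEB. All 9 luminal markers examined (EPCAM, ITGA6, KRT8, KRT18, KRT19, GATA3, ESR1, PGR and FOXA1) stood above 10 counts per 1000000 reads on genes (CPM) in each protocol. Of 6 markers of other cells, PTPRC, PECAM1, KRT5 and KRT14 had no read in Takara and NEB and at most 1.26 CPM in G&T. COL1A1 had 12 (G&T), 12.6 (Takara) and 10.8 CPM (NEB), and VIM had 1.26, 2.13 and 18.1. The 6 together ranged from 1.52 to 44.6 CPM over G&T cells, from 0 to 53.7 over Takara cells and from 0 to 128 over NEB cells, and their part in the results was not tested.

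Ribosomal protein genes are among the most strongly transcribed genes of a growing cell, and each encodes a subunit protein of the ribosome. Their mature messages have been copied back into the genome many times by the reverse transcriptase of LINE-1 elements. Such a processed pseudogene lacks introns, often ends in a run of A, and starts its life without the promoter of its parent. Most are thought to be silent, and a read that comes from the parent message can be placed on a copy when the sequences are nearly the same. In these files only reads with a single best position were counted, so a read that fitted parent and copy equally well was counted on neither.

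The sequences show how little separates many copies from their parents. Each line below gives 60 bases of coding sequence, 5′ to 3′, read from GRCh38, and capitals mark the bases at which pseudogene and parent differ. The stretches are those with the most differences in the alignment, so they show the best case for telling the copies apart. RPS2P5 is shown as the pseudogene with most reads, RPL10P9 for its high share of its parent's reads, the RPL41 copies as cases without a difference, and RPL23AP82 and RPL32P26 as diverged copies. RPS2P5 is at chr12:118246856-118246915 on the plus strand, and the stretch is coding bases 773 to 832 of RPS2 (gene at chr16:1962058-1964841, minus strand).
RPS2P5: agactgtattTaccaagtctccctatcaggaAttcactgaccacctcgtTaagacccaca
RPS2: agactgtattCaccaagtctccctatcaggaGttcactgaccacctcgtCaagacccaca
RPL10P9 is at chr5:168616705-168616764 on the plus strand, against coding bases 354 to 413 of RPL10.
RPL10P9: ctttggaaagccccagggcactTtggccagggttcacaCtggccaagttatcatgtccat
RPL10: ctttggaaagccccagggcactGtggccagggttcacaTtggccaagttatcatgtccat
RPL41P5 (chr12:93083616-93083675, minus strand) and RPL41P1 (chr20:21755270-21755329, plus strand) have the same letters as coding bases 1 to 60 of RPL41.
RPL41P5: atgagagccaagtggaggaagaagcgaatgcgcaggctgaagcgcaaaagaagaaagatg
RPL23AP82 is at chr22:50799026-50799085 on the plus strand, against coding bases 373 to 432 of RPL23A.
RPL23AP82: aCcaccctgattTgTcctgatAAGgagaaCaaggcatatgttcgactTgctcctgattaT
RPL23A: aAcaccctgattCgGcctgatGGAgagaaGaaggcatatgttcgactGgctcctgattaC
RPL32P26 is at chr12:62658923-62658982 on the plus strand, against coding bases 104 to 163 of RPL32.
RPL32P26: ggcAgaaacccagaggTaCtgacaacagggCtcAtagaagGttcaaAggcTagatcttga
RPL32: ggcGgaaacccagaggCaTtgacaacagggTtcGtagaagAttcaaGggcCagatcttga
The stretches hold 3 differences for RPS2P5, 2 for RPL10P9, 0 for the RPL41 copies, 9 for RPL23AP82 and 8 for RPL32P26.

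The 71 pseudogenes come from 43 parent genes, 28 of the large and 15 of the small ribosomal subunit. RPL21 had 5 of them, RPL7 and RPL17 had 4 each, and RPS2, RPL23A, RPLP0, RPL32 and RPS18 had 3 each. The annotation calls 61 of them processed pseudogenes, 8 transcribed processed pseudogenes, and RPL23AP82 and RPL32P3 transcribed unprocessed pseudogenes. By position 37 lay in an intron of another gene, 20 of them on the opposite strand to the host and 17 on the same strand, while 29 were intergenic and 5 overlapped an exon. Whether the counting used the strand is not given in the sources used here. Without strand, reads of an intronic copy and of the unspliced RNA of its host cannot be told apart on either strand, and on the same strand they cannot in any case.

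The pseudogenes with reads were closer to their parents than the class as a whole. Their median identity to the parent transcript was 98.4%, against 88.8% for all 1598, and 52 of the 71 (73.2%) had at least 95% identity, against 218 of the 1598 (13.6%). A reading frame of at least 95% of the parent's codons was open in 37 (52.1%), against 11.2% of all. A run of at least 10 A within 500 bases downstream, as a copied poly(A) tail can leave, was present in 47 (66.2%), against 35.4% of all. The share in an intron was 52.1% against 48.5%. Identity was not part of the choice, but it bears on whether a parent's read can be placed on a copy, and its part in the reads was not tested.

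**Figure D1:**
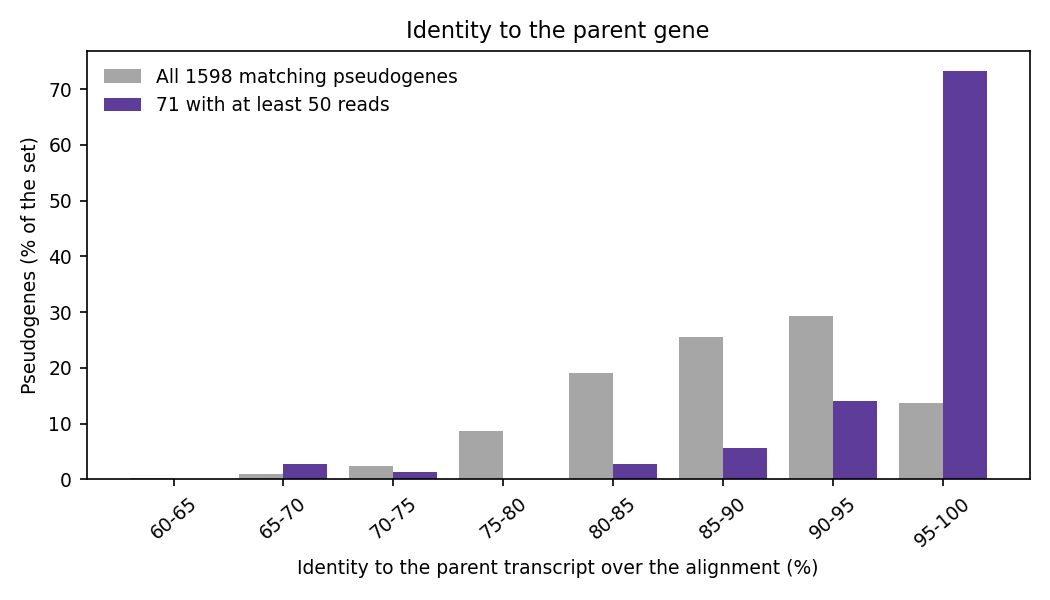
Bars give the share of pseudogenes (%) in each 5-point range of identity to the parent transcript, for all 1598 pseudogenes of this name (grey) and the 71 with at least 50 reads (purple). The range of 95 to 100% holds 73.2% of the 71 and 13.6% of all.

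The near-identity also limits what a count means. Over their alignment 6 of the 71 were identical to the parent, and 6 had no 50-base stretch that was absent from parent and other copies. A stretch of 50 bases was shared with at least 1 other listed copy by 64 of the 71, and 11 shared none with the parent. These include RPL7P21 and RPL7P46, which were compared with RPL7 by their symbol but match RPL7L1 better. In 56, a shared stretch crossed an exon junction of the parent, so that it matches the spliced message and not the parent's genomic DNA. All values on a copy that shares such stretches are uncertain, since reads that fitted both equally were left out and others can be misplaced.

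Ribosomal protein pseudogenes took a small part of each library, largest in G&T. In G&T they held from 0.0661% to 0.144% of the reads on genes of a cell, with a median of 0.0960% and a mean of 0.0996% ± 0.0276 (SD, n = 11 cells). Takara cells ranged from 0.0354% to 0.0683%, with a median of 0.0477% and a mean of 0.0485% ± 0.00849. NEB cells ranged from 0.0179% to 0.0510%, with a median of 0.0347% and a mean of 0.0346% ± 0.00921. G&T and NEB cells did not overlap, and Takara overlapped with each of them.

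Their 43 parents followed the same order. The parents held 5.84% ± 1.65 of the reads on genes of G&T cells, 3.14% ± 0.545 in Takara and 2.57% ± 0.541 in NEB. Set against the parents, the pseudogenes had 1.72 ± 0.199 reads per 100 parent reads in a G&T cell, 1.55 ± 0.127 in Takara and 1.37 ± 0.386 in NEB, and these ranges overlapped. Summed over the cells, the pseudogenes had 9754 reads to 577121 on the parents in G&T (1.69 per 100), 5624 to 364276 in Takara (1.54) and 2746 to 203161 in NEB (1.35). RPL41P5 and RPL41P1 alone held 1581 and 939 of the G&T reads, 77 and 291 in Takara, and 9 and 14 in NEB. Without them G&T is no longer the highest, so the order of these shares rests on them. Reads with several positions, which were left out of the counts, were 4.14%, 3.74% and 2.81% of reads in G&T, Takara and NEB.

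More of the pseudogenes were detected (at least 1 read) in a G&T cell than in a NEB cell. The number detected ranged from 52 to 64 with a median of 58 in G&T, from 48 to 59 with a median of 53 in Takara, and from 31 to 47 with a median of 38 in NEB. At these unequal depths the NEB cells lay below all others. Thinned to 624772 reads on genes, the means were 56.2, 46.6 and 36.6. NEB and Takara cells then overlapped, with 40.9 in Takara cell E1 against 41.9 in NEB cell D1 and 41.2 in NEB cell H2. All G&T cells stayed above all NEB cells. Reads in every one of 11 cells were found for 37 (G&T), 28 (Takara) and 10 (NEB) of the pseudogenes, whereas 8, 10 and 21 had reads in 3 or fewer cells. Detection of genes of any kind, not thinned, was also lowest with NEB. The median NEB cell had 5161 genes with a read (highest 6719), against 10983 for Takara (lowest 10624) and 11253 for G&T (lowest 9541). Low detection with NEB was thus not particular to these pseudogenes.

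A few copies carried most of the reads. The 4 pseudogenes with most reads, RPS2P5, RPL41P5, RPL10P9 and RPL41P1, held 35.4% of the 18124 reads and the first 10 held 55.0%, while the median pseudogene had 114. Per kilobase of exon the order differed, with 21372 summed reads per kilobase for RPL41P5, which is 78 bases long, 15358 for RPL41P1, and 2538 for RPS2P5. A read that only overlaps so short a copy counts in full, so these values are not comparable with those of longer copies. At the edge of the choice, RPL31P37 and RPS6P25 had 50 reads each, and RPS26P3 with 49 and RPS27AP5 with 46 fell just outside.

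**Figure D2:**
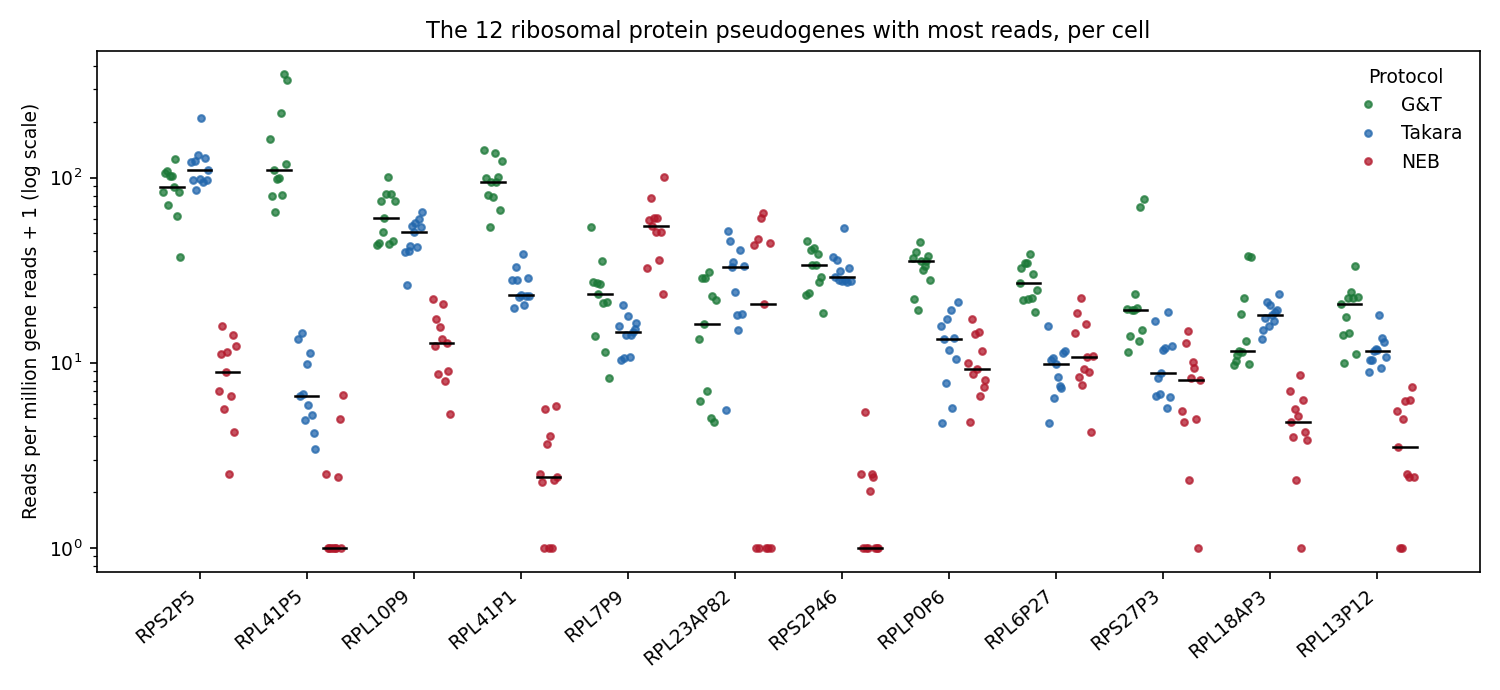
Each point is 1 cell and gives the CPM plus 1, on a log scale, for the 12 pseudogenes with most reads; black lines are medians of 11 cells. By the median, NEB (red) is lowest for 9 of the 12 and highest for RPL7P9.

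RPS2P5 is a copy of RPS2, which encodes a protein of the small subunit, and lies in an intron of TAOK3 on the opposite strand. It keeps a frame of 293 codons, the full length of the parent's, and is 98.7% identical to it. It was detected in all 33 cells. In G&T cells it ranged from 36.3 to 125 CPM with a median of 88.3, in Takara cells from 85.1 to 210 with a median of 108, and in NEB cells from 1.52 to 14.7 with a median of 7.93. NEB cells thus lay below all cells of the other protocols. The pooled level was 13.9-fold higher in Takara than in NEB (95% counting interval 10.8 to 18.0).

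RPS2P5 followed RPS2 closely between protocols. The pooled level of RPS2 was 1403 (G&T), 1779 (Takara) and 140 CPM (NEB). The pseudogene had 6.16, 6.45 and 5.93 reads per 100 reads of RPS2 in these protocols, a range of 1.09-fold while RPS2 itself ranged 12.7-fold. Of 11990 other genes, RPS2 had the most similar pattern over the 33 cells (Spearman's rho 0.91), followed by the kinase gene ULK3 (0.89) and LZTS2 (0.89). These coefficients mix 3 protocols and share libraries. Within protocols the coefficient with RPS2 was 0.71 (G&T), 0.82 (Takara) and 0.55 (NEB) over 11 cells each. The host gene TAOK3, which encodes a kinase, had 103, 65.1 and 74.2 CPM.

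RPS2P46, another copy of RPS2, was likewise lowest in NEB, with a lower share. It had a median of 32.6 CPM in G&T cells (lowest 17.6, highest 44.6), of 28.1 in Takara cells (26.2 and 52.5) and of 0 in NEB cells (0 and 4.42). It was 35.3-fold higher in Takara than in NEB (17.0 to 88.4), and its reads per 100 of RPS2 were 2.18, 1.74 and 0.629. With only 7 reads in NEB, these values moved to 56.5-fold and 0.398 per 100 without NEB cell B1. The third, RPS2P45, behaved otherwise and is described with the copies seen in few cells.

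The copies of RPL41 stood out in G&T. RPL41 encodes the smallest protein of the large subunit, a short basic peptide, and its copies are as short. RPL41P5 ranged from 63.8 to 360 CPM in G&T cells with a median of 108, from 2.42 to 13.4 in Takara with a median of 5.61, and from 0 to 5.68 in NEB with a median of 0. G&T cells lay above all others. The pooled level in G&T was 25.3-fold that in Takara (20.1 to 32.3) and 147-fold that in NEB (77.5 to 323), or 242-fold without NEB cell H2.

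The parent differed less. RPL41 had 2053 (G&T), 625 (Takara) and 220 CPM (NEB), so that RPL41P5 had 8.10, 1.05 and 0.513 reads per 100 of RPL41 (0.323 in NEB without cell H2). On the log2 scale of CPM plus 1, RPL41P5 was 4.47 higher in G&T than in Takara and RPL41 was 1.72 higher. RPL41P1 had a median of 93.9 CPM in G&T cells (lowest 53.2, highest 140), of 22.2 in Takara cells (18.7 and 37.9) and of 1.42 in NEB cells (0 and 4.80). The 3 protocols did not overlap for RPL41P1, and its shares of 4.81, 3.98 and 0.798 per 100 were nearer to each other in G&T and Takara. RPL41P5 lies in an intron of a long noncoding RNA gene, ENSG00000257322, which had 5 reads in all, and RPL41P1 is intergenic.

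RPL10P9 had a high share of its parent's reads in every protocol. RPL10 encodes a late-joining protein of the large subunit. RPL10P9 was detected in all 33 cells, from 42.1 to 100 CPM in G&T (median 59.2), from 25.3 to 63.8 in Takara (median 49.7) and from 4.26 to 21.0 in NEB (median 11.9). NEB cells lay below all others. It had 9.02, 13.7 and 8.66 reads per 100 of RPL10. Exons of other genes, on either strand, cover 53.7% of the RPL10 transcript in the annotation used here. Whether reads there counted as ambiguous depends on the strand setting and annotation of the counting, which are not given. If they did, the parent's count would be lower and this share higher, which was not tested.

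RPL7P9 went the other way. RPL7 encodes a protein of the large subunit. The copy had a median of 22.5 CPM in G&T cells (lowest 7.26, highest 53.3), of 13.6 in Takara cells (9.35 and 19.6) and of 53.6 in NEB cells (22.4 and 99.4). NEB cells lay above all Takara cells, and overlapped with G&T cells. RPL7 was likewise highest in NEB, with 5751 CPM against 2061 in G&T and 1330 in Takara, and the share stayed at 1.12, 1.03 and 0.944 per 100.

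**Figure D3:**
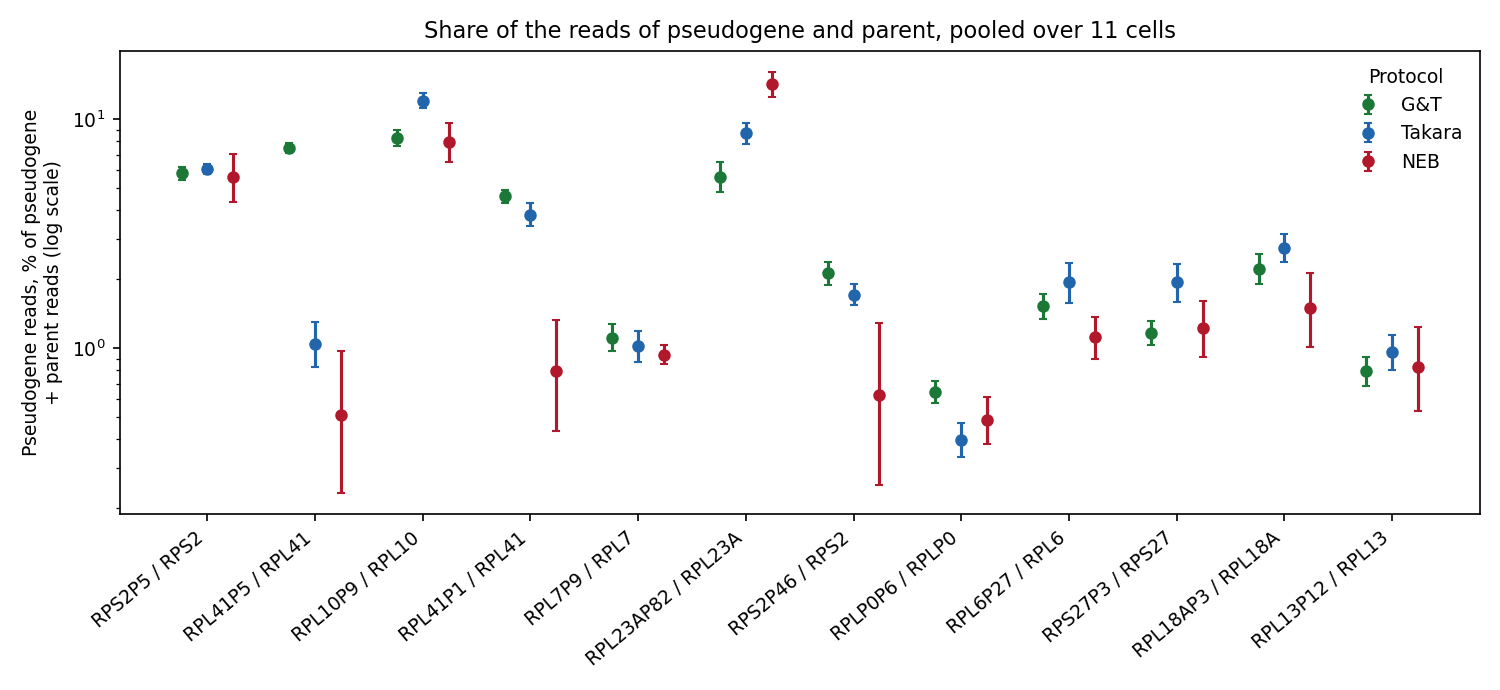
Points give the reads of each pseudogene as a percentage of the reads of pseudogene and parent together, on a log scale, pooled over 11 cells of a protocol, with 95% Clopper-Pearson intervals that cover counting error only. RPS2P5, RPL7P9 and RPL13P12 have nearly level shares over the protocols, whereas the RPL41 copies fall from G&T to NEB and RPL23AP82 rises.

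Many copies with enough reads kept a level share of the parent. With at least 10 reads of pseudogene and parent in every protocol, 38 could be followed. The highest share of the parent was less than 2-fold the lowest in 19 of them, and for 18 of these the parent itself differed by more than 2-fold. The share varied less than the parent in 28 of 38. Over the 38, the median of the highest over the lowest protocol was 1.99-fold for the share, 3.40-fold for the parent's CPM and 4.23-fold for the pseudogene's CPM.

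Copies with level shares included those of both subunits. RPS3AP6, a copy of the small-subunit gene RPS3A, had 1.79, 1.57 and 1.69 reads per 100. RPL13P12, from the large-subunit gene RPL13, had 0.798, 0.969 and 0.836. RPS7P1, a copy of RPS7, had 0.751, 0.747 and 0.809. RPS3AP6 and RPS7P1 are named here after their values were seen.

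Other copies left their parents. RPL23AP82 had 5.93, 9.49 and 16.5 reads per 100 of RPL23A, a large-subunit gene, and RPL32P3 had 0.836, 0.631 and 5.28 per 100 of RPL32. Both are transcribed unprocessed pseudogenes that share 0.714% and 0% of their 50-base stretches with the parent. Each also overlaps an exon of a long noncoding RNA gene on the same strand, and that gene is not among the genes listed. Reads of that RNA could therefore be counted on the copy, which was not tested. RPL23AP82 had 0 reads in 5 of 11 NEB cells and up to 63.3 CPM in the others. RPL32P3 had reads in 10 G&T, 5 Takara and 4 NEB cells, and reached 97.6 CPM in NEB cell G2. Without that cell its NEB share was 2.84 per 100.

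RPL36AP37 was the only pseudogene with at least as many summed reads as its parent, 137 against 83 for RPL36A, a large-subunit gene. It lies in an intron of PLEKHA7 and is identical to the parent over 321 bases. Exons of other genes, mainly the readthrough gene RPL36A-HNRNPH2, cover 43.8% of the RPL36A transcript, and RPL36A had no read in NEB, where 0 reads allow up to 0.376 CPM. The copy itself had 99 G&T reads, 22 Takara reads and 16 NEB reads. Similarly, 96.9% of the RPL17 transcript lies under other exons and RPL17 had only 197 reads, so the shares of its 4 copies are not comparable with the rest.

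RPL7P21 and RPL7P46 carry the name of RPL7 and match another gene better. They were 67.2% identical to RPL7 each, and 97.5% and 97.0% identical to RPL7L1, a gene for a related protein that acts in ribosome assembly. For the other 69, the parent in the symbol was the best match. RPL7L1 had 223 (G&T), 168 (Takara) and 350 CPM (NEB). Against it, RPL7P21 had 1.61, 0.811 and 0.286 reads per 100, and RPL7P46 had 1.37, 0.659 and 0.358. The NEB values rest on 8 and 10 reads and were 0.0785 and 0.196 without NEB cell D1. In all other counts and medians both copies are set against RPL7, including the scatter of copies with no shared stretch. RPL7P46 is also among the copies followed for a level share. These 2 copies were named after their alignments were seen.

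Between protocols, pooled levels were compared on the log2 scale of CPM plus 1, with a call at 2-fold, which is a threshold of size and not a test. In G&T against Takara, 34 of the 71 were at least 2-fold higher in G&T, where 19.9% of the 11991 genes with at least 50 reads were, and 0 were 2-fold higher in Takara, where 18.1% of genes were. The median pseudogene was 0.96 higher in G&T, the median parent 1.04 higher, and the median of all genes was -0.0050. With reads on ribosomal protein genes as the denominator, the medians were 0.23 for the pseudogenes and -0.04 for the parents, while all genes moved to -0.99. The cells of the protocols did not overlap for 6, RPL41P5, RPL41P1, RPL6P27, RPL7AP6, RPL6P10 and RPL17P6, all higher in G&T, against 0.809% of all genes.

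The furthest towards G&T after RPL41P5 were RPL7AP6 and RPS26P15. RPL7AP6, a copy of the large-subunit gene RPL7A in an intron of SMOC1, ranged from 11.4 to 54.9 CPM over G&T cells (median 18.8) and from 0 to 5.65 in Takara (median 1.22), and was 13.1-fold higher (8.46 to 21.3). Its parent RPL7A had 1523 and 882 CPM. RPS26P15 had 62 reads in 8 G&T cells and 1 read in Takara, a ratio of 76.5 with a counting interval from 13.2 to 3068. Furthest towards Takara were RPL23AP7 with 0.80 on the log2 scale, RPL23AP82 with 0.68 and RPL34P6 with 0.68. The 7 Takara reads of RPL34P6 came from 1 cell, E2, and its ratio without that cell was 0. RPL23AP7 passed 2-fold when G&T cell A1 (1.16) or H1 (1.28) was left out.

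In G&T against NEB, 44 of 71 were at least 2-fold higher in G&T, where 43.9% of genes were, and 10 in NEB, where 20.1% were. The median pseudogene was 1.47 higher in G&T, the median parent 1.73, and all genes 0.63, and against reads on ribosomal protein genes the pseudogenes were at 0.27 and all genes at -0.76. No cell of either protocol overlapped for 17 pseudogenes, all higher in G&T, against 4.07% of genes, and for 0 higher in NEB, against 1.27%. RPS28P7, a copy of the small-subunit gene RPS28 and identical to it over 210 bases, ranged from 7.60 to 37.3 CPM over G&T cells (median 18.8) and had 1 read in NEB, a ratio of 160 (28.4 to 6365). RPS28 had 772 CPM in G&T and 12.9 in NEB.

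In Takara against NEB, 19 were at least 2-fold higher in Takara, where 42.9% of genes were, and 14 in NEB, where 22.8% were. The median pseudogene was 0.14 higher in Takara, with 0.77 for the parents and 0.56 for all genes, but its direction turned (-0.08) with reads on ribosomal protein genes as the denominator. Cells did not overlap for 8 that were higher in Takara (9.47% of genes), namely RPS2P5, RPL10P9, RPL41P1, RPS2P46, RPL18AP3, RPL13P12, RPS28P7 and RPS18P12. RPL7P9 was the 1 copy higher in NEB without overlap (1.82% of genes).

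The choice by summed reads shapes these counts. Outside the protocol with most of its reads, 39 of the 71 had fewer than 50 reads, and that protocol was G&T for 26 of them, Takara for 4 and NEB for 9. Of the 39, 23 had at least 50 reads in that protocol alone. In the protocol with most reads, 27 of the 39 were 2-fold higher than in both others, 8 than in 1 of them and 4 than in neither. The choice thus favours differences between protocols, and the counts describe the 71 and support no statement on ribosomal protein pseudogenes in general.

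Copies and parents mostly moved to the same side. Pseudogene and parent were on the same side of 0 for 58 of 71 in G&T against Takara, 55 in G&T against NEB and 47 in Takara against NEB. Most parents were above 0, with quartiles of 0.57 and 1.48, 0.91 and 2.39, and -0.13 and 1.41 in these comparisons. A pseudogene above 0 thus shared the side of most parents, not only of its own, and several pseudogenes have the same parent. The median difference of pseudogene minus parent, on the log2 scale, was -0.03, -0.03 and -0.09. The comparisons share protocols, and the 85 ribosomal protein genes moved as well: 51 were at least 2-fold higher in G&T than in Takara and 66 than in NEB. The highest level was in G&T for 49 of the 71, in Takara for 9 and in NEB for 13, and in the same protocol as the parent for 51. The protocol with the highest level was not counted over all genes.

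**Figure D4:**
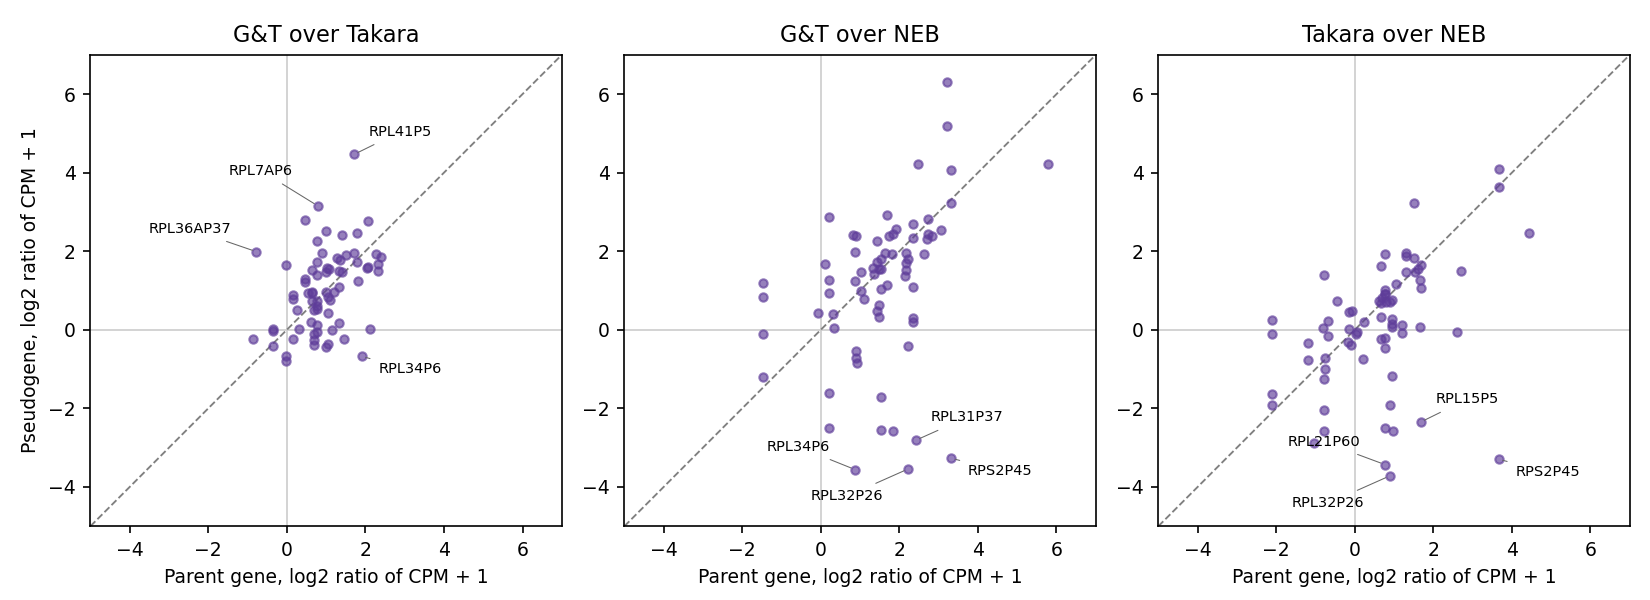
Each point is 1 of the 71 pseudogenes; the x axis gives the log2 ratio of CPM plus 1 of its parent between the protocols named above the panel, and the y axis that of the pseudogene, with the dashed line at equal ratios. The points at the foot of both NEB panels include RPL32P26 and RPS2P45, higher in NEB while their parents were lower there, and RPL34P6, whose parent was lower in NEB than in G&T and higher than in Takara.

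Several copies higher in NEB rested on 1 cell. Of the 10 that were 2-fold higher in NEB than in G&T, 3 lost the call when some cell was left out, and of the 14 over Takara 6 did. In the other directions 3 of 34 (G&T over Takara), 4 of 44 (G&T over NEB) and 3 of 19 calls (Takara over NEB) were lost in the same way. RPS2P45, 80.1% identical to RPS2, had 76 of its 79 reads in NEB cell C2, where RPS2 had 85, and 1 read each in 3 other cells. Its log2 ratio of 3.27 in NEB over G&T was 0.04 without that cell. RPL15P5, a copy of the large-subunit gene RPL15, had 49 of 57 reads in NEB cell C1, and RPL17P18 had 57 of 82 in NEB cell C2. These 3 copies were no longer 2-fold higher in NEB than in either protocol without their cell. RPL31P37, a copy of RPL31, had 39 of 50 reads in NEB cell H2, and its ratio over Takara was 0.93 without it. The calls over Takara of RPL17P6 (0.50 without NEB cell E2) and RPL5P4 (-0.20 without NEB cell G2) were lost too. RPL15P5, RPL17P18 and RPL5P4 are named after their values were seen.

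RPL32P26, RPL34P6 and RPL21P60 were spread over more NEB cells. RPL32P26 lies in an intron of PPM1H on the opposite strand and shares no 50-base stretch with RPL32. It had reads in 8 of 11 NEB cells, with a median of 15.9 CPM and a maximum of 51.6, against 4 reads in 1 G&T cell and 3 reads in 2 Takara cells. It was 36.9-fold higher in NEB than in G&T (14.1 to 138), while RPL32 had 306 CPM in NEB and 1435 in G&T. RPL34P6, a copy of RPL34, had 86 reads in 5 NEB cells, 7 in 1 Takara cell and none in G&T, which makes it at least 34.2-fold higher in NEB than in G&T at the limit of 3 reads, and at least 21.3-fold without NEB cell H2. RPL21P60, in an intron of NSD1, had 78 reads in 3 NEB cells, 22 in 2 G&T cells and none in Takara, at least 38.2-fold higher in NEB at the same limit, and at least 25.4-fold without NEB cell C2.

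The 71 ranged from copies in all 33 cells, of which there were 8, to a copy in 3 cells. The 20 found in at least 30 cells had a median identity of 99.3% to the parent, the 43 found in 11 to 29 cells 98.2%, and the 8 found in 10 or fewer cells 92.1%. Their median summed reads were 298, 105 and 60, and the number of cells with a read depends on the reads, so the part of identity in breadth was not tested. The largest share of a copy's reads in 1 cell had a median of 9.32%, 16.9% and 44.9% in the 3 sets, and reached 96.2% for RPS2P45. All 8 copies in few cells had fewer than 50 reads outside the protocol with most of their reads, so nothing is read from which protocol that was. RPLP0P2, a transcribed copy of RPLP0 with 7 exons, was in 12 cells, with 73 of 251 reads in Takara cell D1. Its log2 ratio of 1.63 in Takara over NEB was 0.26 without that cell.

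**Figure D5:**
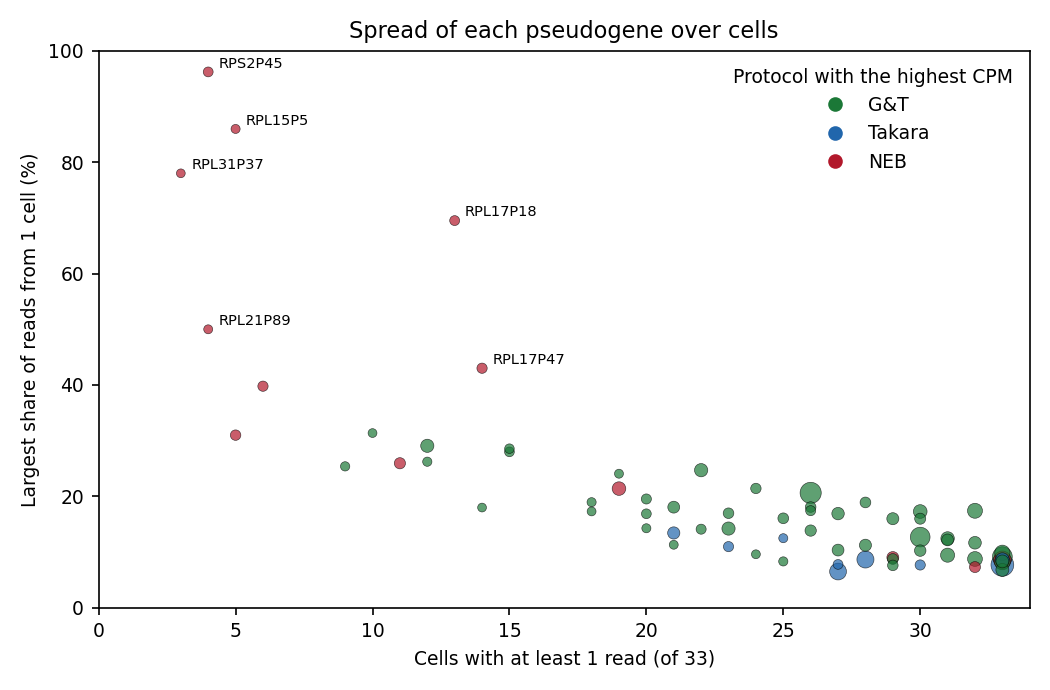
Each point is 1 pseudogene; the x axis gives the number of cells of 33 with a read, the y axis the largest share of its reads (%) that came from 1 cell, the area grows with its reads, and the colour gives the protocol with the highest CPM. RPS2P45 at the upper left has 96.2% of its reads in 1 cell, and the 20 copies at the right, in at least 30 cells, have at most 17.4%.

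The scatter of a copy around its parent from cell to cell was measured as the variance of its reads divided by that expected if it were a fixed share of the parent's reads with counting error only. A value of 1 is counting error. The median was 2.09 in G&T over 64 copies with at least 10 reads, 1.19 in Takara over 57 and 1.27 in NEB over 49. It was under 2 for 30, 45 and 31 of these, and above 10 for 6, 1 and 15. RPS2P46 had 0.213 and RPL41P1 0.364 in Takara, and RPL17P18 had 162 in NEB. The copies with most reads, RPS2P5, RPL41P5, RPL10P9 and RPL41P1, had 5.23, 12.6, 3.47 and 5.86 in G&T. In Takara the first 3 of these had 1.49, 2.09 and 1.88. Their G&T reads thus varied around the parent by more than counting error.

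The scatter was set beside the sequence shared with the parent. For the 17 copies with at least 75% of their 50-base stretches in the parent, the median was 2.54 (G&T), 1.10 (Takara) and 1.14 (NEB), over the 17, 17 and 11 with enough reads. The 28 copies sharing from 25% to under 75% were lower in each protocol, at 1.67, 0.965 and 1.00 over 28, 24 and 19. The 15 copies sharing less than 25% were at 3.00, 3.68 and 14.01 over 13, 10 and 9, and the 11 with no such stretch at 6.75, 1.26 and 31.4 over 6, 6 and 10. In each protocol both sets below 25% thus had a higher median than both sets above, with no steady order within these pairs. Some copies below 25% reached 50 reads only through 1 NEB cell, such as RPS2P45 with 76 of 79 reads and RPL15P5 with 49 of 57. The choice by summed reads thus builds scatter into these sets. RPL17P18 and RPL17P47 are also among them, and their parent RPL17 had only 62 reads in NEB. The sets were found in medians of 29, 28, 15 and 14 cells, from the most to the least shared. Reads of the parent placed on a copy and reads of the copy's own transcript cannot be told apart in these counts.

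The host genes of the 37 intronic copies ranged from unread to well covered. The host had at least 1000 reads for 13 and fewer than 10 for 12. RPLP0P6, a copy of RPLP0 in a long noncoding RNA gene with 2 reads (LINC02613), was found in all 33 cells, at 32.6, 11.8 and 9.16 pooled CPM in G&T, Takara and NEB, and RPS27P3 lies in TSPAN9, which had no read in NEB while the copy had 51. RPS18P5, a copy of RPS18, lies in PCNP, which was highest in NEB with 667 CPM against 64.4 in G&T and 101 in Takara, and the copy had 6.40, 10.5 and 12.8 CPM in NEB, G&T and Takara. RPS18P5 is named here after its values were seen.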

How the data were processed

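Single T47D cells were sequenced as paired-end full-length cDNA with 3 protocols. After trimming by Trim Galore in 2 rounds and alignment with STAR against GRCh38, the authors deposited, per protocol, the raw count of uniquely placed reads on each gene in each cell. The annotation release and the strand setting of the counting are not given in the sources used here. Symbols, types and coordinates came from GENCODE release 44 by identifier (56104 of 60279 genes matched, 4175 did not).

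Cells were kept by the 4 thresholds of the study: at least 1000 genes, a library of at least 600000 reads, at most 30% mitochondrial and at most 25% ERCC reads. This left 11 of 13 G&T, 11 of 13 Takara and 11 of 14 NEB cells. CPM (counts per 1000000 reads on genes of a cell) was taken from reads summed over cells for pooled levels, with 1 CPM added before log2. Each protocol is 1 sample, and the SD and range describe cells of 1 run. Exact 95% Poisson, binomial and Clopper-Pearson intervals, and the limit of 3 reads for a count of 0, cover counting error only, since reads without molecular identifiers are not independent molecules.

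Exons of each pseudogene were joined and aligned locally to the canonical transcript of the gene in its symbol (match 2, mismatch -3, gap opening -5, extension -2), and compared in stretches of 50 bases. The genes named are the 12 with most reads, the first 3 by CPM per protocol, the 3 most different per pair of protocols and direction, those at the edge of the choice, those with at least their parent's reads, the 5 most-read intronic copies, the 3 most confined to 1 cell and the 3 in most cells. Members and lists were chosen with earlier results of these data known. Of the steps, only the pooled 2-fold call was tested on simulated counts, for G&T against Takara. Those counts held counting error only, and the known changes were in genes above a minimum level. The call was thus not tested for copies with few reads or uneven cells, and the other steps were not simulated. Python 3.11.15, numpy 2.4.6, pandas 2.3.3, scipy 1.17.1, Biopython 1.88, matplotlib 3.10.9, R 4.3.3 and edgeR 4.0.16 (TMM factors only) were used.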

Additional observations from a re-analysis of the deposited data

Results flagged for a closer look

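Cells that failed the quality thresholds took part in no comparison, and 5 of the 7 held more reads on the 71 pseudogenes than a count of 0 allows, which flagged them. As a percentage of reads on genes the pseudogenes held 0.0387 in G&T cell C2, 0.0818 in G&T cell F1, 0.0653 in Takara cell C2, 0.065 in NEB cell B2 and 0.0202 in NEB cell F2. Takara cell F1 and NEB cell F1 had no such read. In G&T cells C2 and F1 the pseudogenes had 1.53 and 1.52 reads per 100 parent reads, within the range of the kept G&T cells. Takara cell C2 had only 10 reads on them beside 43 on the parents, 5 of them on RPS26P47. In NEB cell B2 they had 3.77 reads per 100 parent reads, above every kept NEB cell, and RPS3AP26 with 126 reads and RPL17P47 with 108 held most of its 293. RPL17 had 0 reads in that cell. NEB cell F2 had 1.22 per 100, with RPL7P9 leading at 18 reads.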

How the results depend on the processing

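Of 110 comparisons of a main value with an alternative setting, 76 stayed within the SD between cells or, for counts, within 1.5-fold, and 34 did not. Members detected per cell fell, by construction, to 52.5, 43.4 and 27.2 in G&T, Takara and NEB when at least 2 reads were asked for, and to 37.7, 23.7 and 13 with at least 5. In Takara they were 46.6 after thinning and 44.8 over all deposited cells. Reads per 100 parent reads in G&T were 1.40 with a minimum of 20 summed reads, 2.16 with 100 and 1.30 with none, and in Takara 1.30, 1.95 and 1.17, 1.33 with parents under no other exon, and 1.17 without RPS2P5.

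Members 2-fold higher in G&T than in Takara numbered 20 with a pseudocount of 5 CPM, 13 against reads on ribosomal protein genes and 88 with no minimum. Those higher in Takara than in G&T numbered 2 with a pseudocount of 0.1, 8 against ribosomal protein genes and 3 by the median of cells. For G&T over NEB the counts were 28 with a pseudocount of 5, 18 against ribosomal protein genes, 29 with a minimum of 100 and 111 with none. For NEB over G&T they were 16 against ribosomal protein genes, 3 by the median of cells, 3 with a minimum of 100 and 26 with none. Takara over NEB gave 5 with a pseudocount of 5. NEB over Takara gave 5 by the median of cells, 6 with a minimum of 100 and 32 with none. TMM factors left each of these counts within 1.5-fold. No named ratio turned to the opposite side. By the median of cells, however, the named ratios of RPS2P45, RPL34P6 and RPL21P60 fell to 0, as the median cell of each protocol had no read of them. The best-scoring match as parent and leaving out the RPL41 copies were added after the values were seen. The first was applied to reads per 100 parent reads and the second only to the share of reads on genes. Neither moved a value beyond the SD between cells. Apart from settings that change how many members or genes enter, the cause was not tested.

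Leaving out 1 cell at a time gave 0 to 1 members 2-fold higher in Takara than in G&T, the 1 being RPL23AP7 without G&T cell A1 or H1. No paired analysis was possible because the wells of the protocols hold different cells and no value comes from a test. Depth limits the precision for copies with few reads in a protocol, as the counting interval from 28.4 to 6365 for RPS28P7 in G&T over NEB shows.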
